A study of Mus musculus with 2 samples.

Results

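The Fos and Jun genes encode the subunits of AP-1, a transcription factor that binds DNA as a pair of basic leucine zipper proteins. The family was described here over 8 genes taken by name: Fos, Fosb, Fosl1, Fosl2, Jun, Junb, Jund and Atf3, out of 37069 gene names on the array. All 8 were found by the RefSeq accession of their probes. Fos proteins pair only with partners such as Jun proteins, whereas Jun proteins can also pair with each other. In cortical neurons, Fos, Fosb and Junb are immediate early genes, transcribed within minutes of synaptic activity with no need for new protein, and Fos is widely used as a mark of recently active neurons. Jund is expressed steadily, and Atf3 is a related factor induced by stress and injury to cells.

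RNA of the prefrontal cortex (PFC) of male C57Bl/6 N sea mice was compared between a control group and a group exposed to chronic mild stress (CMS), which is a schedule of varied unpredictable stressors used to model depression. The mice were 9 to 10 weeks old at the start. The CMS mice were housed singly and stressed for 4 weeks, and the control mice were housed in groups with ordinary care, so that stress and housing cannot be told apart. Brains were taken the day after the last stressor. The study's methods name a tail suspension test for the mice of both groups used in molecular work, but elsewhere name other mice for behavior. The time between this test and sampling was not given. RNA was pooled within each group, from 7 mice by the design text, while the study's methods name 10 mice per group, and each pool was hybridized to 1 one-color Agilent array on a shared slide. Each group thus has a single array and no replicates, and no test between the groups, no SD between mice and no p-value could be given. Only the spread between spots of the same probe was available as an error. In pooled bulk RNA, fewer cells of a type and less RNA per cell cannot be told apart.

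On each array 59305 spots were not controls, 65.2% of them well above background in the control pool and 65.9% in the CMS pool, with 0 saturated. Each array was scaled to a mean signal of 2500, and signals below are scaled intensities in arbitrary units. A ratio is the CMS signal over the control signal. It was called past 2-fold where it was above 2 or below 0.5, which is a log2 ratio past 1 or -1. Signals of different genes come from different probes and do not order the genes by expression. They were used only to match genes by measurement noise, to choose which gene of a list to name, and for 1 measure of likeness to Fos. Markers were read beside the tissue label. Passing background does not tell tissues apart here, as all 20 hepatocyte markers passed it in both pools. All 12 neuron markers and all 8 markers of cortical excitatory neurons were well above background on both arrays, with log2 ratios from -0.18 to 0.20 and from -0.17 to 0.16, and 0 of them past 2-fold. Markers of other tissues were not all level. Of 20 hepatocyte markers, 19 were above 2 times control, and their summed signal was 12572 in the control pool and 111388 in the CMS pool. Of 8 neutrophil markers 2 were above 2 times control, S100a9 at 2.27-fold and Ltf at no less than 2.03-fold. Their part in the results below was not tested.

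The members with the lowest ratios and Jund, the member with the ratio nearest to 1, are shown with the 150 bases before their annotated transcription start, from the RefSeq promoter table of build GRCm38.p6, written 5′ to 3′ along the gene. These windows are shown because immediate early genes are induced through factors such as CREB that bind close to the start. Capitals mark TGACG, the core of the cAMP response element (CRE), and TATAAA, the TATA box, on either strand, and the Jund window holds none. Of the members with a window that is not shown, Fosl2 and Jun held no TGACG and Atf3 held it.
Fos, chr12:85473740-85473889 (+ strand): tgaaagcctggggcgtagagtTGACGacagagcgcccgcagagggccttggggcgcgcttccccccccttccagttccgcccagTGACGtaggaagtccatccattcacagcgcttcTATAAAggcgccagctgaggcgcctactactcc
Fosb, chr7:19310046-19310195 (- strand): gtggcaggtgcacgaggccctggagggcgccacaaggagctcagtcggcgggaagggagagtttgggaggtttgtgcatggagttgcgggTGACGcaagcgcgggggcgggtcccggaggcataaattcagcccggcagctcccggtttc
Junb, chr8:84978749-84978898 (- strand): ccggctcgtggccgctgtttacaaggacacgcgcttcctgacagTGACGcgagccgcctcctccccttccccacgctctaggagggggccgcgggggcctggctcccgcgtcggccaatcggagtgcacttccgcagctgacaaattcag
Jund, chr8:70697589-70697738 (+ strand): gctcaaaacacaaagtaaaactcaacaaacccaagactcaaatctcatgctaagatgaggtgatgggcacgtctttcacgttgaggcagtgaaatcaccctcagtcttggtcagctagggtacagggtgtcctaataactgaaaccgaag

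Windows of 250 bases were searched on both strands, and 7 members had a window in the table. TGACG was found in 4 of these 7, namely Fos, Fosb, Junb and Atf3, and in 17.8% of all 32851 windows. Atf3 had a log2 ratio of -0.37, and Fosl2, Jun and Jund, at -0.50, -0.24 and -0.03, held no TGACG. Whether TGACG goes with the ratio was not tested. Fos held it at 66 to 62 and at 129 to 125 bases before the start, Fosb at 60 to 56, Junb at 106 to 102, and Atf3 at 7 to 3 bases before the start. The windows of these 4 were 58.4% to 68.8% G and C, and the median over all windows was 52.4%. The 17.8% is thus not a share among windows of like base content. The full CRE, TGACGTCA, which contains TGACG, was in 0 of 7 members and in 1.55% of all windows. Jun held TGACATCA at 45 to 38 bases before the start, a match to TGACNTCA, which also covers the full CRE and was in 7.49% of all windows. TGANTCA, the classical AP-1 site, was in 0 of 7 members and 6.75% of windows, and the CArG box bound by serum response factor in 0 of 7 and 1.47%. TATAAA was in the Fos window alone among the members, at 33 to 28 bases before the start, and in 12.4% of all windows. CCAAT was in Jun and Junb and in 33.8% of all windows. A match is a run of letters and was not tested as a binding site, and a sequence absent from this window may lie outside it.

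Fos was the member that differed most between the pools. Its probe (NM_010234) is printed on the array 10 times, so that the measurement of each pool was repeated 10 times within its array. The scaled signal was 1432 in the lowest spot, 1490 at the median and 1585 in the highest spot of the control pool. In the CMS pool it was 529, 579 and 615. All 10 CMS spots lay below all 10 control spots. The means were 1502 ± 55.2 in the control pool and 574 ± 31.6 in the CMS pool (SD over 10 spots of 1 array). The log2 ratio was -1.39, so that the CMS pool held 38.2% of the control signal, 2.62-fold less. Spot by spot, the log2 ratio ran from -1.48 to -1.27 with an SD of 0.08. This SD covers printing, hybridization and scanning, and not the difference between mice.

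**Figure D1:**
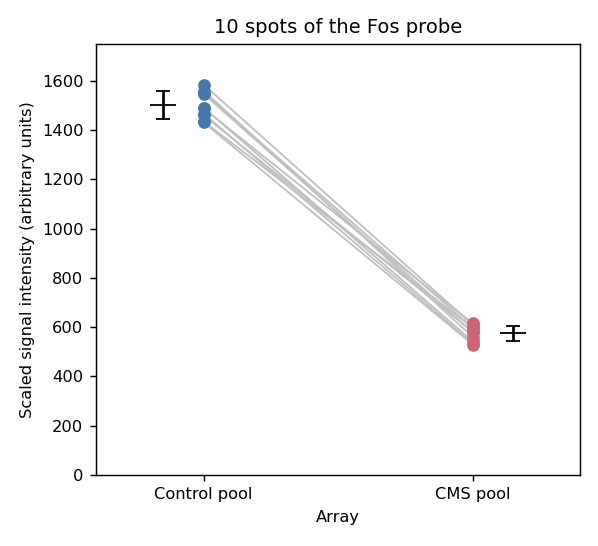
Scaled signal of the 10 spots of the Fos probe on the control array and on the CMS array (arbitrary units, axis from 0). Each line joins the spots at the same place on both arrays, and the black marks give the mean and SD over spots, 1502 ± 55.2 and 574 ± 31.6. Every CMS spot sits below every control spot.

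Junb, which encodes a Jun protein with weaker transactivation than Jun on many targets, had a signal of 124 in the control pool and 60.2 in the CMS pool (NM_008416, 1 spot). The log2 ratio was -1.04, or 48.6% of control. Junb was measured close to background, at 6.96 times the lowest signal well above background on the control array and 3.42 times on the CMS array. Among probes printed several times with a mean signal under 100, spots differed in log2 ratio with an SD of 0.26, compared with 0.10 for signals of 100 to 1000, 0.06 for 1000 to 10000 and 0.04 above 10000. The Junb ratio was thus 4.07 times the spread of spots at its signal, but lay only just past 2-fold. With normexp background correction and quantile normalization its log2 ratio was -0.66, which is not past 2-fold. That setting adds an offset of 50 to every signal, which by construction shrinks the log2 ratios of dim probes.

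Fosb, whose truncated product accumulates in neurons on repeated stimulation, had a signal of 857 in the control pool and 497 in the CMS pool (NM_008036, 1 spot). Its log2 ratio of -0.79, or 58.0% of control, was 7.53 times the spot spread and did not pass 2-fold. The array carries 1 probe under this accession, and which Fosb transcripts it detects was not given in the sources used here.

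Fosl2 encodes Fra-2, a Fos protein that lacks the strong transactivation domain of Fos. It was read by 2 probes of the same accession (NM_008037). The brighter had a signal of 1465 in the control pool and 1035 in the CMS pool, which is 70.6% of control and a log2 ratio of -0.50. The dimmer had 62.2 and 52.6, a log2 ratio of -0.24, which is 0.94 times the spot spread at that signal. Both probes were lower in the CMS pool, the first beyond the spread of spots and the second within it. Fosl1, which encodes Fra-1, was not well above background on either array, with signals of 12.1 and 10.3, and was given no ratio.

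Jun, which encodes the partner with which Fos forms the classical AP-1 pair, had a signal of 3840 in the control pool and 3246 in the CMS pool (NM_010591). The log2 ratio was -0.24, or 84.5% of control, which is small but 4.21 times the spread of spots at this signal. Jund, the steadily expressed Jun gene, had signals of 12992 and 12712 (NM_010592). Its log2 ratio of -0.03, or 97.8% of control, was within the spread of spots. Atf3 had signals of 58.6 and 45.4 (NM_007498), near background on both arrays, and a log2 ratio of -0.37 that was 1.43 times the spread of spots.

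**Figure D2:**
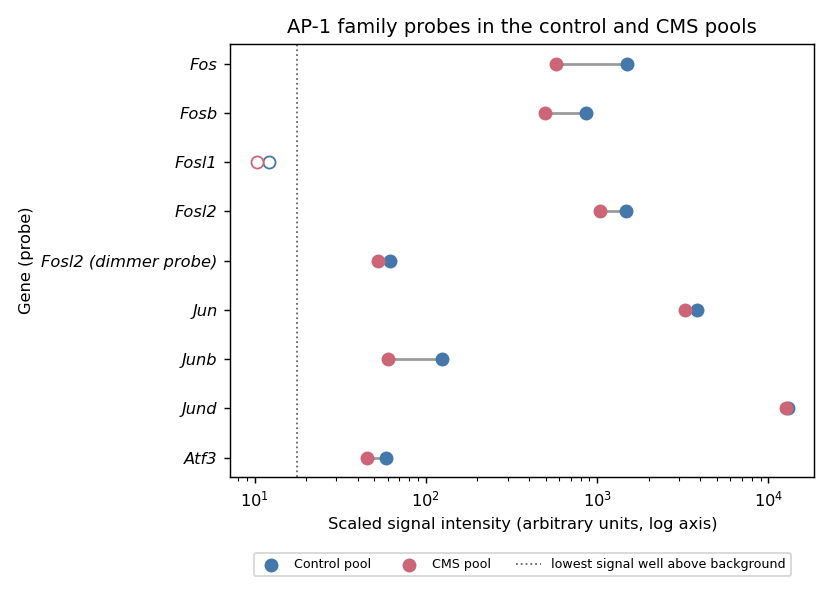
Scaled signal of each AP-1 family probe in the control pool and the CMS pool (arbitrary units, log axis), with 1 array per pool and the mean of 10 spots for Fos. Open circles are not well above background, and the dotted line is the lowest signal that was. Fos, Junb and Fosb have the widest gaps, Jund has almost none, and levels of different genes are not comparable.

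In order of log2 ratio the members ran Fos, Junb, Fosb, Fosl2, Atf3, Jun and Jund. Neighbors in this order were compared by the error that the spot spread gives their difference. Fosb was lower than Fosl2 by 0.28 on the log2 scale and Jun was lower than Jund by 0.21, both over 2 times that error (0.24 and 0.14). The other 4 pairs of neighbors, including Fos and Junb with a difference of 0.35, did not differ beyond it (0.52 for Fos and Junb). The spot error does not cover differences between probes, and the 2 probes of Fosl2 alone were at -0.50 and -0.24.

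Of the 7 members with a ratio, 2 were below 0.5 times control, Fos and Junb, and 0 were above 2. Over all 27100 genes with a ratio, 0.565% were below 0.5 and 1.96% above 2, which makes 2.52% past 2-fold. An accession without a symbol counts as a gene in these shares. Over the 25442 genes well above background in both pools, as these 7 members were, 0.173% were below 0.5 and 1.16% above 2. All 7 ratios were below 1, where the share was 58.8% of all genes and 60.0% of the genes well above background in both pools. At a log2 ratio of -0.5 or lower were 4 of the 7 members and 3.12% of the 27100 genes with a ratio. These 27100 include dim genes whose ratios are bounds. Fosl2, at -0.50, lay at the limit of -0.5 and was above it under several alternatives, such as quantile normalization, with -0.47. At -0.50 it was in place 482 from the lowest of the 25442 genes well above background in both pools. The median log2 ratio of the members was -0.50 and that of all genes was -0.03, with 5% of all genes below -0.40. With 1 pool per group these shares describe 2 arrays and are not a test.

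Because ratios scatter more at low signal, each member was also set among the genes well above background on both arrays whose mean signal was within 2-fold of its own. For Fos, 1 of 5463 such genes had a ratio as low, which was Egr2. For Fosb the number was 9 of 5630, for Junb 16 of 6103 and for Fosl2 23 of 5330. For Jun 2.50% of genes of like signal were as low, for Atf3 13.0% and for Jund 46.6%. Fos, Fosb, Junb and Fosl2 thus lay at the lower edge of the genes of their brightness, and Atf3 and Jund inside the bulk.

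**Figure D3:**
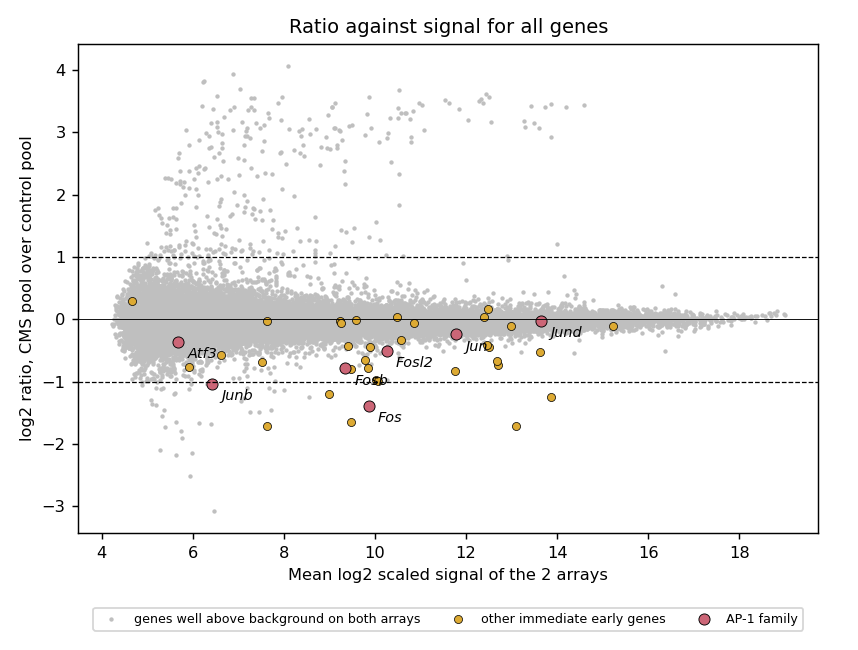
Log2 ratio of CMS over control against mean log2 signal for the 25442 genes well above background on both arrays, with 1 array per group. The dashed lines mark 2-fold, gray points are all genes, yellow points other immediate early genes, and AP-1 members are named. Fos (-1.39) and Junb (-1.04) lie below the lower line, and the cloud of genes is wider at low signal.

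The genes that had a symbol and passed background in both pools numbered 15545. Of these, 21 were below 0.5 times control, and Fos was in place 10 and Junb in place 21 from the lowest. The lower ratios before Fos were those of Gm20736 with a log2 ratio of -2.52, Otogl with -1.90, Arc with -1.72, Ccn1 with -1.71, Spns3 with -1.67, Egr2 with -1.65, Arid5b with -1.55, 4833418N02Rik with -1.49 and Syt10 with -1.46. Some of these were dim in the CMS pool. With normexp and quantile normalization Otogl was at -0.98, Spns3 at -0.92 and Arid5b at -0.54, not past 2-fold. The offset of that setting shrinks the log2 ratios of dim probes by construction. Fos and the other 6 of these 10 were below -1 under every setting tried. By distance over the log2 signals of both arrays, which depends on probe signal as well as on the ratio, the genes nearest to Fos were Csrnp1, Dusp1, Nr4a2, Trib1 and Gadd45b. Their distances were 0.36 to 0.54 and their log2 ratios ran from -0.99 for Nr4a2 to -0.65 for Gadd45b, with 2 arrays as the only points.

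A list of 35 other genes, called other immediate early genes here, was examined beside the family. Of these, 33 were well above background in both pools, and Nr4a3 and Dusp5 in the control pool alone, so that their ratios are bounds. Among the 33, 5 were below 0.5 times control and 0 above 2, against 0.173% and 1.16% of all genes well above background in both pools. The list was chosen with earlier results of these data known, so that these counts are not a test. The study itself reported lower Arc and Btg2 in the CMS group, on the arrays and by PCR. The ratio was below 1 for 29 of the 33, beside 60.0% of all genes well above background in both pools. A log2 ratio of -0.5 or lower was found for 17 of the 33, beside 3.12% of all 27100 genes with a ratio. That share is over a wider set, which includes dim genes whose ratios are bounds. The median was -0.53. Arc, a synaptic protein transcribed with neuronal activity, had a signal of 15897 in the control pool and 4838 in the CMS pool. Egr2, a zinc finger factor, had 1258 and 400 (log2 ratio -1.65). Nr4a1, an orphan nuclear receptor, had 23144 and 9723 and a log2 ratio of -1.25. Ccn1, a secreted matrix protein listed under its older name Cyr61, had 358 and 110, and Btg2, an antiproliferative factor, had 777 and 339 with a log2 ratio of -1.20. Vgf, a neuropeptide precursor whose probe had the highest signal of the list, had 40083 and 37112 and a log2 ratio of -0.11. The AP-1 and immediate early lists together gave 7 of the 21 genes with a symbol below 0.5. These are 7 of the 40 genes of these lists well above background on both arrays, beside 21 of all 15545 such genes with a symbol.

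The lists of genes that act before and after AP-1 held 0 genes past 2-fold, a count that says little of lists this short when 2.52% of all genes were. Among 26 upstream kinases, promoter-binding factors and coactivators, 0 were past 2-fold and the median log2 ratio was -0.04. By the brightest probe of each gene their lowest was Srf, at -0.29, which encodes serum response factor and whose other probe was at -0.04. Some dimmer probes of other genes lay lower, and the probes of Mapk8 ran from -0.49 to 0.15. The gene with the highest signal in this list was Elk1, the partner of serum response factor on the Fos promoter, at -0.01. This Elk1 probe read 399635 in the control pool and 397832 in the CMS pool, above Gapdh with 260252 and 268003. What the probe detects was not tested, and the other Elk1 probe was at 0.05. Of 24 related leucine zipper factors, 23 were matched and 0 were past 2-fold, with a median of -0.00 and a range from -0.59 for Batf3 to 0.40 for Batf2. Atf4, the one with the highest signal, which drives the response to amino acid shortage, was at -0.01. Of 11 genes for turnover of Fos and Jun mRNA or protein, 10 had a ratio, between -0.15 and 0.05, and the one with the highest signal was Khsrp, at -0.05, whose other probe was at -0.44. Of 21 textbook AP-1 target genes, 17 had a ratio, 0 were past 2-fold and the median was -0.08. The lowest was Nts, the neurotensin gene, at -0.53, and the one with the highest signal was Penk, the enkephalin precursor, at -0.28. These lists were read against the median of -0.03 over all genes.

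**Figure D4:**
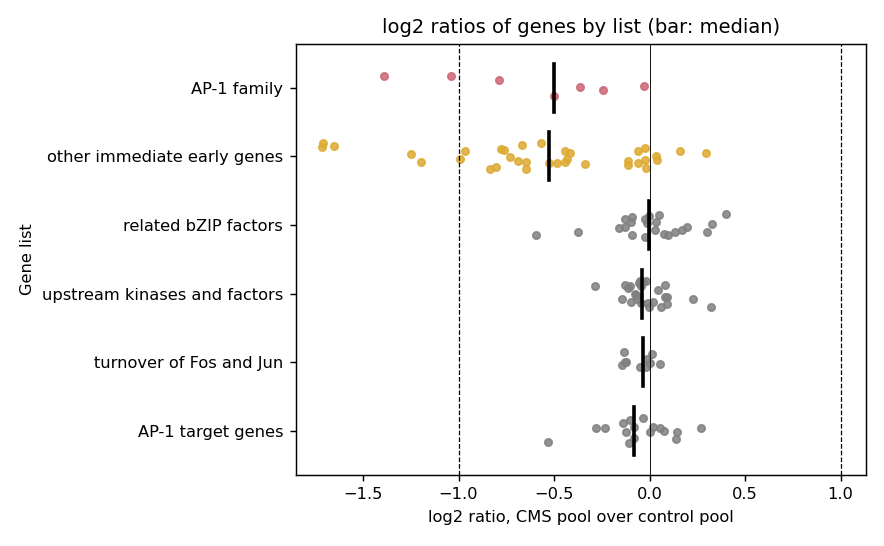
Log2 ratio of CMS over control for each gene with a ratio in the AP-1 family and 5 related lists, 1 point per gene, with spread along the vertical axis for legibility only. The black bars are medians, -0.50 for the AP-1 family and -0.53 for the other immediate early genes against -0.08 to -0.00 for the other 4 lists, and the dashed lines mark 2-fold.

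Of the markers of other cell types in brain, 0 were past 2-fold, beside 2.52% of all genes. Median log2 ratios were -0.02 for 8 astrocyte markers, -0.15 for 8 oligodendrocyte markers, 0.04 for 8 microglia markers, -0.13 for 8 brain endothelium markers, 0.08 for 7 choroid plexus markers and -0.17 for 7 striatum markers. Of 8 erythroid markers 4 had a ratio, with a median of 0.45, and 2 were not matched. For the hepatocyte markers the median was 3.27, and all 20 were well above background in both pools. For the neutrophil markers the median was 0.63. Their summed signal was 3745 in the control pool and 3987 in the CMS pool, most of it from Elane, with 2798 and 2291, and the other 7 summed to 948 and 1695. Gapdh, the reference gene of the study's PCR, had a log2 ratio of 0.04, and with both arrays scaled to it Fos was at -1.43 and Junb at -1.08.

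**Figure D5:**
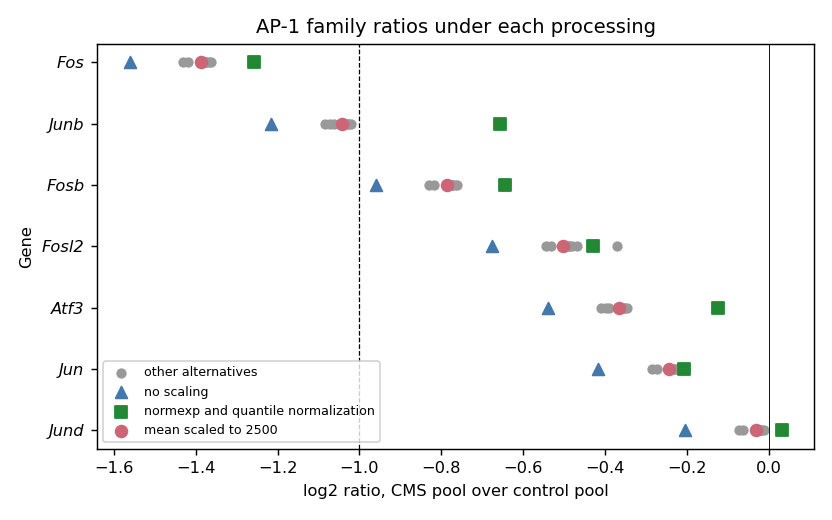
Log2 ratio of each AP-1 member with a ratio under the scaling to a mean of 2500 and under 12 other ways of processing the 2 arrays. Fos stays between -1.56 and -1.26, Junb crosses the 2-fold line (dashed) to -0.66 with normexp and quantile normalization, and Jund moves to either side of 0.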

How the data were processed

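Pooled PFC RNA, labeled with Cy3, was read on 1 array per group. The authors extracted the scans with Agilent Feature Extraction 10.10.1.1, and the deposited signal intensities are linear values after background subtraction and spatial detrending. The deposited value table holds the same intensities multiplied by 1 factor per array (1.80 and 2.05, found by comparison with the scanner values).

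Outlier spots were left out (130 and 133), spots of a probe averaged, and the arrays brought to an average of 2500, which the study's methods name. The deposited values themselves have means of 5307 and 5351, and gave member ratios equal at 2 decimals to those of a mean trimmed by 2% at each end, which was an alternative (Fos at -1.38 on the log2 scale, beside -1.39). A probe well above background in at least 0.5 of its spots counted as such. A probe below it on 1 array took its own signal or, where higher, the dimmest signal well above background there (17.8 in the control pool and 17.6 in the CMS pool), its fold being a bound. A probe below it on both had no ratio. A gene was its probe with the highest mean log2 signal. Accessions were named without versions through the RefSeq table of GRCm38.p6, which named 30725 of 59305 spots. An accession that matched no single symbol counted as a gene of its own. Of the 25442 genes well above background in both pools, 15545 had a symbol. Lists gave 23 of 24 related leucine zipper genes and 6 of 8 erythroid markers, and all genes of the others.

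Spot spread was pooled over 308 probes with at least 5 spots. Precision was limited by the number of arrays. The members and lists were chosen with earlier results of these data known. The rule for named genes took all members, the genes past 2-fold of each list (at most 6) with the one of highest signal, the 10 lowest ratios, the 5 genes nearest to Fos, and Gapdh. Hepatocyte markers are given as counts. Srf, Batf2, Batf3 and Nts, the extremes of their lists, and Mapk8, for the range of its probes, were chosen after their values were seen. Alternatives covered 12 settings of scaling, background, dim probes, outliers and probe choice. Normexp used median intensities with an offset of 50. The calling step was checked on simulated arrays with known changes, which tests the code and not the groups. Python 3.11.15, numpy 2.4.6, pandas 2.3.3, matplotlib 3.10.9, R 4.3.3 and limma 3.58.1 were used.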

Additional observations from a re-analysis of the deposited data

How the results depend on the processing

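No paired analysis was possible because each group has 1 array, and for the same reason no array could be left out. For the members, their counts and median, the count of genes below 0.5 and the immediate early median, 133 values stayed and 23 moved. A log2 ratio counted as moved past 0.13, the spread of spots over all signals, a median past the standard error which that spread gives it, and a count past 1.5 times. By that measure Fosl2 at -0.37 with its probes averaged stayed, although the spread at its signal was 0.06. Apart from shifts that a setting makes by construction, the cause was not tested. The normexp offset of 50 makes such a shift, as it shrinks the log2 ratios of dim probes. With no scaling the median of all genes went from -0.03 to -0.20 by construction, and log2 ratios were -1.56 for Fos, -0.96 for Fosb, -0.68 for Fosl2, -0.42 for Jun, -1.22 for Junb, -0.20 for Jund and -0.54 for Atf3, with a member median of -0.68, an immediate early median of -0.70 and 249 genes below 0.5. With normexp and quantile normalization Fosb was -0.64, Junb -0.66 and Atf3 -0.12, and 1 member was below 0.5 (Fos, at -1.26), with a member median of -0.43, an immediate early median of -0.36 and 37 genes below 0.5. The count of genes below 0.5, 153, was 309 with no bound for dim probes and 44 where both arrays had to be well above background. The immediate early median was -0.56 under median scaling, -0.57 under Gapdh scaling and -0.57 with no bound. The member median was -0.37 with probes of 1 gene averaged. Of genes past 2-fold, 22.4% were lower, against 36.8% with no scaling 12.3% with normexp and 13.0% where both arrays had to be well above background. Among the members, Fos, Fosb, Fosl2, Jun, Junb and Atf3 had ratios below 1 under every setting, and Jund ran from -0.20 to 0.03. Of the other values, 1121 stayed and 126 moved. Signal over background limits Junb, Atf3, Fosl1 and the dimmer Fosl2 probe.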
